A study of Homo sapiens with 9 samples.

Results

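The proteasome is the large protease that degrades ubiquitin-tagged proteins, and the genes described here encode its subunits, its assembly chaperones, its activators and its inhibitor. The members were all gene symbols that begin with PSMA to PSMG followed by a digit, without PSMC3IP, which belongs to another family, and without pseudogene symbols. The rule found 48 genes among the 19969 symbols of the count table, and it used no measured value. At least 1 read was counted for 47 of them. After genes with low counts had been removed, 45 could be tested against the input libraries and 43 between guides.

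RNA was sequenced after removal of ribosomal RNA from HEK293T, a line of human embryonic kidney cells. The labels tie 6 libraries to cells with an FHY1-M3 construct and a guide RNA (sgRNA), with 2 libraries each for the ACTB sgRNA, the con sgRNA and the non-target sgRNA, and they call 3 further libraries input. The series concerns light-controlled editing of N6-methyladenosine, a methyl mark on RNA, and FHY1 is the name of a plant protein that binds phytochrome A. The labels do not state if the sgRNA libraries were made before or after immunoprecipitation, the light given, how the con sgRNA differs from the non-target sgRNA, or whether the inputs came from cells with the construct. The count table names the con columns con_ACTB_sgRNA, whereas the sample titles say con_sgRNA. Since no label says that the replicates were separate cultures, the spread behind each p-value is that between libraries and could be technical.

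Protein degradation by this complex works in steps. The 20S core is a barrel made of an outer pair of alpha rings, which gate the entrance, around an inner pair of beta rings, which hold the peptide-cutting sites. The 19S regulatory particle caps the barrel: its base contains a ring of ATPases that unfold substrates, and its lid removes the ubiquitin chain. Activators can take the place of the 19S cap, and dedicated chaperones assemble core and base. In human cells most of these genes are expressed in nearly all tissues, and the transcription factor NFE2L1 raises many of them together when proteasome activity falls short.

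Libraries with an sgRNA held 2900021 to 3802681 counts and inputs 350413 to 643954, so the input values are the less precise ones. Mitochondrially encoded genes took 0.563% to 0.639% of the counts in the sgRNA libraries and 7.52% to 7.80% in the inputs, and replication-dependent histone genes 0.132% to 0.149% and 0.797% to 0.938%. A heat shock gene list took 1.34% to 1.42% of the counts in the sgRNA libraries and 0.620% to 0.676% in the inputs. The part of these differences in the results below was not tested. All 8 genes of a list expected in HEK293T were detected, with a summed level of 1171 to 1332 CPM (counts scaled to the same total in each library) in the sgRNA libraries and 1148 to 1372 CPM in the inputs. Of 7 leukocyte markers, 4 were at 0 in every library (PTPRC, CD3E, LYZ and TYROBP), and the list summed to 8.40 to 15.7 CPM and 10.5 to 22.8 CPM. In bulk libraries of 1 line, a change in some of the cells and a smaller change in all of them cannot be told apart.

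Between the 6 FHY1-M3 libraries and the 3 inputs, proteasome mRNAs were mostly higher in the FHY1-M3 libraries, and the 19S particle accounted for most of the genes that passed the test. Of 45 members tested, 15 rose and 4 fell at a Benjamini-Hochberg adjusted p under 0.05, which is 33.3% and 8.89% of them. Over all 13411 genes tested, 11.4% were higher and 8.6% lower. Among genes with a mean of at least 50 CPM, a limit chosen after the data were seen, 14 of 32 members were higher and 2 lower, against 21.5% and 12.4% of 5282 genes. The median log2 difference of the members was 0.34, compared with 0.04 over all genes tested. Positive values were found for 32 members and negative values for 13, where 6964 of all tested genes were positive and 6447 negative. The libraries of both groups did not overlap for 16 of the 45 members, 12 with FHY1-M3 above input and 4 below, where 14.9% and 8.51% of all tested genes were separated in this way.

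**Figure D1:**
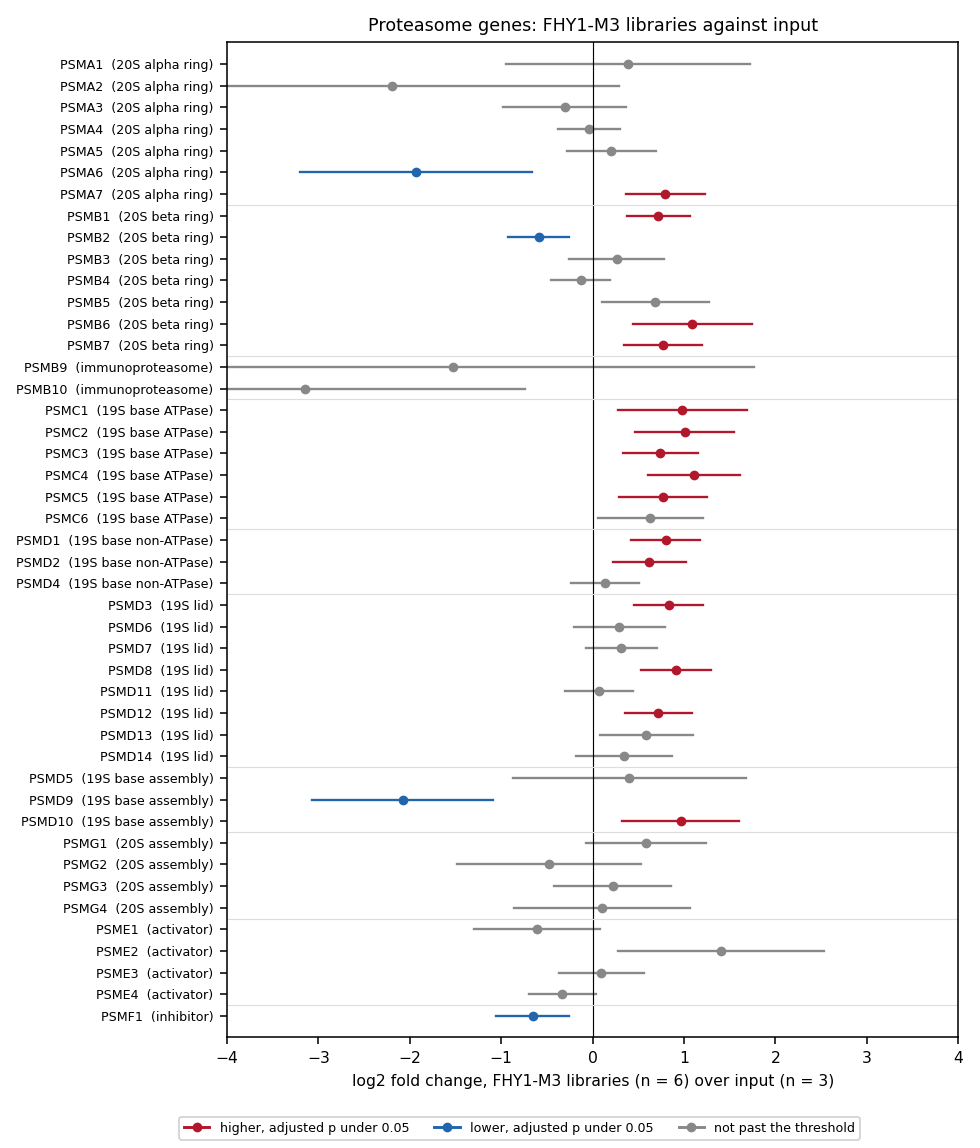
Log2 difference between the 6 FHY1-M3 libraries and the 3 inputs (x axis) for the 45 members tested, grouped by role. Points are fitted values and bars 95% intervals, which are drawn only to -4 for PSMA2, PSMB9 and PSMB10. All 17 members of the 19S particle lie right of 0, whereas the core subunits lie on both sides.

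Summed over the 48 genes, proteasome reads made up 0.468% to 0.480% of the counts in the FHY1-M3 libraries and 0.353% to 0.367% in the inputs. The groups did not overlap, and the ratio of their means was 1.32. With mitochondrial and histone counts left out of the totals, the shares were 0.472% to 0.484% and 0.386% to 0.401%, a ratio of 1.21. The division among parts of the complex differed as well. Members of the 19S particle (17 genes) made up 49.96% to 53.1% of the proteasome reads in the FHY1-M3 libraries and 39.6% to 45.0% in the inputs. The 19S ATPases alone made up 13.0% to 15.8% and 9.24% to 10.4%. The 20S core (14 genes) made up 31.8% to 34.3% and 33.7% to 38.5%, so its ranges overlapped. Activators accounted for 6.204% to 7.70% of the proteasome reads with FHY1-M3 and 8.40% to 10.6% in the inputs. As a share of all library counts, the activators overlapped, with 0.02972% to 0.0364% and 0.02966% to 0.0391%. The core was at 0.153% to 0.160% of library counts with FHY1-M3 and 0.123% to 0.141% in the inputs, without overlap. These shares are descriptions and were given no test.

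Several 19S genes rose by similar amounts, and the bases before their start sites are shown here for lid genes of that kind, together with PSMB2, a core gene that fell. PSMD3 and PSMD12 were shown because they hold the core of the antioxidant response element, TGACNNNGC, a sequence bound by NFE2L1 and its relative NFE2L2. PSMD8 was shown for a CCAAT box, CCAAT, which PSMD3 holds too. Each line gives 250 bases before the RefSeq start site (GRCh38.p14), 5′ to 3′ on the strand of the gene, with matches on either strand in capitals. The PSMD3 stretch is chr17:39980557-39980806 on the plus strand, PSMD12 is chr17:67366578-67366827 on the minus strand, PSMD8 is chr19:38374321-38374570 on the plus strand and PSMB2 is chr1:35641527-35641776 on the minus strand.
PSMD3: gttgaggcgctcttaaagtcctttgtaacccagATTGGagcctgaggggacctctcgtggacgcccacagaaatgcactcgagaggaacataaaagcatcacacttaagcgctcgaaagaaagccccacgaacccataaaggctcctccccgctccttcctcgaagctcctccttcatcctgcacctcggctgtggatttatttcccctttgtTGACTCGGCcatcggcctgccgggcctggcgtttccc
PSMD12: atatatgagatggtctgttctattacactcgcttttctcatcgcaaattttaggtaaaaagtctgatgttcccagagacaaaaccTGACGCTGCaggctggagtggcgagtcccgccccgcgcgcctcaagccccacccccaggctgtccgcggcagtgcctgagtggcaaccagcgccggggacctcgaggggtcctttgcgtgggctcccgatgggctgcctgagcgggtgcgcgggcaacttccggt
PSMD8: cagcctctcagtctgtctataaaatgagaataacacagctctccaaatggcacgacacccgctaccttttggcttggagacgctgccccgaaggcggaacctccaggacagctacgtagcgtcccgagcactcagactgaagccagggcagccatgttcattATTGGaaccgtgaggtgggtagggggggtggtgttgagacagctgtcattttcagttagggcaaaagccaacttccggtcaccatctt
PSMB2: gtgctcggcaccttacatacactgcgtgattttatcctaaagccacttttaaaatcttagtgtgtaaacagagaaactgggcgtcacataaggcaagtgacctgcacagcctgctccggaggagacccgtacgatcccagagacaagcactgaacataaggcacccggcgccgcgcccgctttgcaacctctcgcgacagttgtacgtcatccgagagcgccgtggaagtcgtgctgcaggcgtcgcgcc
Neither pattern was found in the PSMB2 stretch, although a CCAAT lies in the 50 bases after its start. The lid genes were picked by these patterns, so the stretches do not compare genes that rose with genes that fell. PSMD9, which also fell, holds 2 copies of the antioxidant core.

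A RefSeq window of 300 bases, 250 before and 50 after the start, was available for 42 members. Read on both strands, TGACNNNGC occurred in 13 of these windows (31.0%) and in 13.6% of all 27305 windows. Those windows, 1 per gene, outnumber the 19969 symbols of the count table. They therefore include genes that were not counted, and were not limited to expressed genes. A CCAAT occurred in 19 of 42 (45.2%) and in 35.7% of all windows. The heat shock element, searched as GAA, TTC and GAA with 2 free bases between each, and as its reverse complement, occurred in 0 of 42 and in 0.487% of all. The antioxidant core occurred in 4 of the 11 windows of members that rose and in 1 of the 4 of members that fell. No window was available for PSMA7, PSMB1, PSMB6 and PSMB7, the core genes that rose. In the 250 bases before the start alone, it occurred in 2 of those 11 and 1 of those 4. The window of a member that fell was that of PSMD9, with 2 copies in a stretch that it shares with HPD. Matching letters are a description of the windows and say nothing about binding.

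In the alpha ring, 1 of 7 subunits rose, 1 fell and 5 did not pass the test, with a median log2 difference of -0.04. PSMA7 (chromosome 20, 62136733 to 62143394) had 101, 84.5 and 62.7 CPM in the inputs and from 124 to 180 CPM, with a median of 142, in the FHY1-M3 libraries. All 6 FHY1-M3 libraries were above every input, and the log2 difference was 0.79 (standard error, SE, 0.21; adjusted p = 0.00701). PSMA6 (chromosome 14, 35278558 to 35317493) was the alpha subunit that fell. Its inputs had 17.3, 34.1 and 15.7 CPM, the ACTB sgRNA libraries 11.6 and 20.8, the con libraries 5.72 and 5.51, and the non-target libraries 3.22 and 1.37. Only ACTB sgRNA replicate 2 overlapped the inputs, and the other 5 libraries were below all of them. The log2 difference over all 6 was -1.93 (SE 0.63; adjusted p = 0.0254). This call was lost when input replicate 2 was left out (adjusted p = 0.222), and also when ACTB sgRNA replicate 1 or 2, con replicate 1 or 2 or non-target replicate 2 was left out, with adjusted p between 0.0519 and 0.0744.

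PSMA4, one of the other alpha subunits, had 163 to 200 CPM with FHY1-M3 and 156, 237 and 162 CPM in the inputs, a log2 difference of -0.04 with a 95% interval of -0.38 to 0.30. PSMA1, PSMA3 and PSMA5 had log2 differences of 0.39, -0.31 and 0.20, each with a 95% interval that included 0. For PSMA2 the counts were low, with 8, 4, 14, 13, 2 and 8 reads in the FHY1-M3 libraries and 7, 6 and 0 in the inputs, and the log2 difference of -2.19 had an SE of 1.22. PSMA8, the alpha subunit of the testis proteasome, had 0 counts in all 9 libraries. That is 0 of 22547605 counts, which allows up to 0.133 CPM if every count is a separate fragment, counting error only. The limit is higher if both mates of a pair were counted.

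The beta ring had 7 standard subunits, of which 3 rose, 1 fell and 3 did not pass the test (median log2 difference 0.68). A pair of the cutting subunits was among those that rose. PSMB6, which cuts after acidic residues, had 23.1, 48.8 and 31.4 CPM in the inputs and 60.7 to 87.0 CPM with FHY1-M3, with a median of 79.7. No FHY1-M3 library reached down to an input, and the log2 difference was 1.09 (SE 0.32; adjusted p = 0.0133). The PSMB6 call was lost without input replicate 1 (adjusted p = 0.0516) and with the sgRNA libraries thinned to the mean input total (adjusted p = 0.0813). PSMB7, which cuts after basic residues, had 168 to 205 CPM with FHY1-M3 (median 193) and 86.7, 78.0 and 178 CPM in the inputs. Input replicate 3 lay within the FHY1-M3 range, and the difference of 0.77 (SE 0.21; adjusted p = 0.00718) did not pass the test without input replicate 2 (adjusted p = 0.11).

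PSMB5, the subunit that cuts after hydrophobic residues and is the main target of proteasome inhibitor drugs, had 75.8 to 117 CPM with FHY1-M3 (median 95.7) and 52.0, 91.0 and 26.1 CPM in the inputs. Only input replicate 2 lay in the FHY1-M3 range. The log2 difference of 0.68 (SE 0.29) did not pass the test over all libraries (adjusted p = 0.0918), but it did without input replicate 2 (adjusted p = 0.0105).

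PSMB1 and PSMB2 are structural beta subunits that went in opposite directions. PSMB1 (chromosome 6, 170535120 to 170553307) had 116, 127 and 146 CPM in the inputs and 189 to 238 CPM with FHY1-M3, with a median of 213. The groups were apart, and the gene rose by 0.72 on the log2 scale (SE 0.17; adjusted p = 0.00236). PSMB2 (chromosome 1, 35599541 to 35641526) had 283, 195 and 282 CPM in the inputs and 139 to 205 CPM with FHY1-M3, with a median of 160. Input replicate 2 overlapped the FHY1-M3 libraries, and the gene fell by 0.59 on the log2 scale (SE 0.17; adjusted p = 0.00973). That call was lost without input replicate 3 (adjusted p = 0.0653). PSMB3 and PSMB4 had log2 differences of 0.26 and -0.13 and did not pass the test.

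Immune forms of the cutting subunits, which interferon induces, were near the limit of detection. PSMB8 had 8 reads in con sgRNA replicate 1 and 0 in the other 8 libraries. PSMB9 had 0, 0, 6, 2, 12 and 2 reads in the FHY1-M3 libraries, in the order ACTB, con and non-target, and 0, 2 and 0 in the inputs. PSMB11, the form of the thymus, had 7 reads in con sgRNA replicate 2 and 0 elsewhere. PSMB10 had 2, 6 and 10 reads in the inputs, or 5.78, 9.75 and 26.1 CPM, and 0.578 to 4.42 CPM in the FHY1-M3 libraries. All FHY1-M3 libraries were below every input, but with so few reads the log2 difference of -3.15 (SE 1.19) missed the threshold (adjusted p = 0.056). DESeq2, the other count test run, gave an adjusted p of 0.00252 for the same gene, and over all alternatives that value ran from 0.00252 to 0.311.

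All 17 members of the 19S particle had a positive log2 difference, from 0.07 to 1.11 with a median of 0.72. Of these, 10 rose. Outside the naming rule, the 19S subunits ADRM1 and SEM1 had log2 differences of 1.03 and -0.27. PSMD11, the 19S member nearest 0, turned negative in 8 of 18 alternatives, among them median-ratio scaling (-0.01). No other 19S member changed sign under any alternative. Within the base, 5 of the 6 ATPases rose (median 0.88). PSMC4 (chromosome 19, 39971165 to 39981764) had 40.5, 65.0 and 68.0 CPM in the inputs and 92.8 to 152 CPM with FHY1-M3 (median 130). Every FHY1-M3 library was above every input, and the log2 difference was 1.11 (SE 0.25; adjusted p = 0.00131), or 2.15-fold.

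PSMC3 (chromosome 11, 47418775 to 47426439) was similarly separated, with 86.7, 94.3 and 94.1 CPM in the inputs and 122 to 179 CPM with FHY1-M3 (median 152; log2 difference 0.74, SE 0.20, adjusted p = 0.00758). PSMC2 had 98.3, 39.0 and 52.3 CPM in the inputs and 90.1 to 144 CPM with FHY1-M3 (median 129), so input replicate 1 overlapped. Its log2 difference was 1.01 (SE 0.27; adjusted p = 0.00641), and 0.70 without input replicate 2 (adjusted p = 0.094). PSMC5 had 52.0, 87.8 and 62.7 CPM in the inputs and 105 to 132 CPM with FHY1-M3 (median 118), with a log2 difference of 0.77 (SE 0.24; adjusted p = 0.0177). The libraries were apart, but the call was lost without con replicate 2, input replicate 1 or input replicate 3 (adjusted p 0.0569, 0.066 and 0.0571).

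PSMC1, the ATPase with the least firm call, had 40.5, 29.3 and 20.9 CPM in the inputs and 43.1 to 69.9 CPM with FHY1-M3 (median 60.4). The libraries did not overlap, and the log2 difference was 0.98 (SE 0.35; adjusted p = 0.042), but the call was lost in 12 of 18 alternatives, with adjusted p up to 0.178. Those included the fits without ACTB sgRNA replicate 1 or 2, con replicate 1 or 2, non-target replicate 1, input replicate 2 or input replicate 3 (0.0631 to 0.142). RefSeq names 13 pseudogenes of PSMC1, more than of any other member, none of them in the count table. PSMC6, the sixth ATPase, had 23.1, 68.3 and 88.9 CPM in the inputs and 85.5 to 117 CPM with FHY1-M3. Input replicate 3 overlapped, and the log2 difference of 0.63 (SE 0.28) did not pass the test (adjusted p = 0.112), but it did without input replicate 3 (adjusted p = 0.0372).

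Of the base subunits without ATPase activity, PSMD1 and PSMD2 rose. These large scaffold proteins bind ubiquitin shuttles and other factors. PSMD1 (chromosome 2, 231056867 to 231172827) had 150, 120 and 81.0 CPM in the inputs and 174 to 226 CPM with FHY1-M3 (median 208). No library overlapped, and the log2 difference was 0.80 (SE 0.19; adjusted p = 0.00197). PSMD2 had 80.9, 146 and 99.3 CPM in the inputs and 121 to 207 CPM with FHY1-M3 (median 180). Its ACTB sgRNA replicate 2 was below input replicate 2, and the log2 difference was 0.62 (SE 0.20; adjusted p = 0.0226). The PSMD2 call was lost in 6 alternatives, among them without input replicate 1 (adjusted p = 0.109), input replicate 3 (0.0851), ACTB sgRNA replicate 1 (0.0651) or con replicate 1 (0.0645). PSMD4, a ubiquitin receptor, had a log2 difference of 0.14 with a 95% interval of -0.23 to 0.50.

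In the lid, 3 of 8 subunits rose and 5 did not pass the test (median 0.46). PSMD8 had the lowest adjusted p of all members. It had 69.4, 150 and 141 CPM in the inputs and 201 to 252 CPM with FHY1-M3 (median 233), for a log2 difference of 0.91 (SE 0.19; adjusted p = 0.000514). PSMD3 had 86.7, 104 and 112 CPM in the inputs and 167 to 197 CPM with FHY1-M3 (median 178), for a log2 difference of 0.83 (SE 0.19; adjusted p = 0.00136). PSMD12 had 133, 137 and 91.5 CPM in the inputs and 183 to 218 CPM with FHY1-M3 (median 199), for a log2 difference of 0.72 (SE 0.18; adjusted p = 0.00351). For each of these lid genes all 6 FHY1-M3 libraries were above all inputs, and each passed the test in all 18 alternatives. PSMD14, the enzyme that cuts ubiquitin chains off the substrate, had a log2 difference of 0.34 (SE 0.26; adjusted p = 0.375). PSMD6, PSMD7, PSMD11 and PSMD13 had log2 differences of 0.29, 0.31, 0.07 and 0.58, and PSMD13 passed the test only without input replicate 1 (adjusted p = 0.0338).

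**Figure D2:**
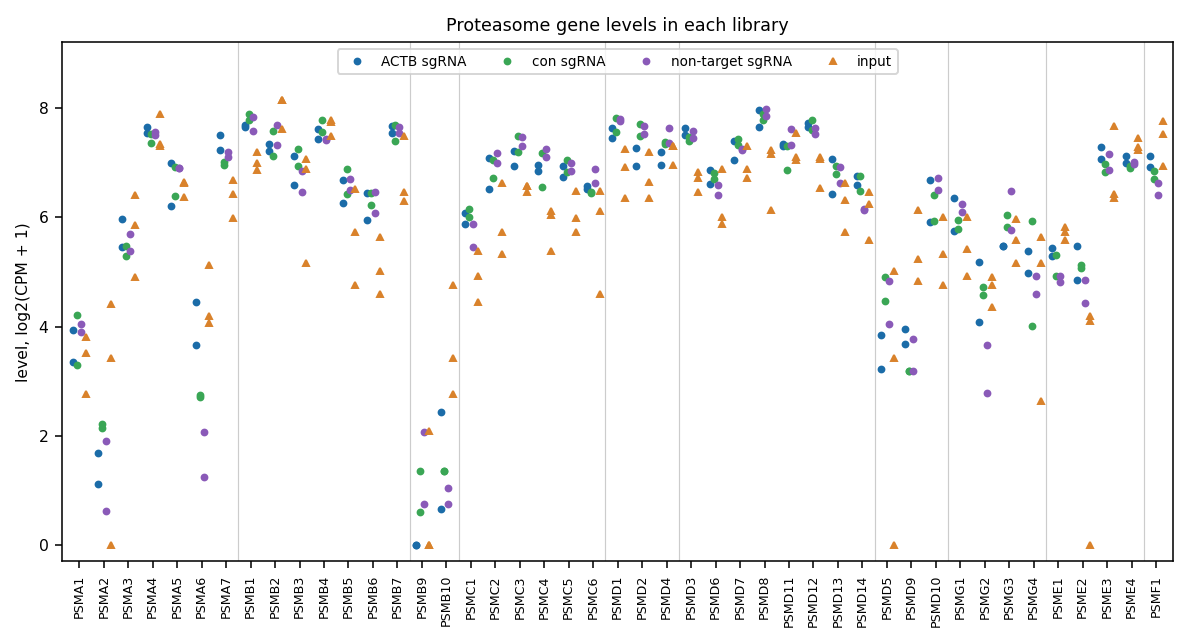
Level of each of the 45 tested members in every library (y axis, log2 of CPM plus 1), with 1 point per library and members ordered by role. Inputs (triangles) lie below the FHY1-M3 libraries (circles) for 19S genes such as PSMC4 and PSMD3, and above all of them for PSMD9.

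The chaperones that assemble the 19S base went both ways. PSMD9 (chromosome 12, 121888790 to 121918297), which holds ATPase subunits before they join the base, had 69.4, 27.6 and 36.6 CPM in the inputs and 8.06 to 14.5 CPM with FHY1-M3 (median 10.01). Every FHY1-M3 library was below every input, and PSMD9 fell by 2.08 on the log2 scale (SE 0.49; adjusted p = 0.002), or 4.22-fold, in a call that held in all 18 alternatives. PSMD10, a chaperone known as gankyrin and studied as an oncoprotein, had 63.6, 39.0 and 26.1 CPM in the inputs and 59.1 to 105 CPM with FHY1-M3 (median 86.5). Input replicate 1 overlapped the FHY1-M3 libraries, and the rise of 0.97 (SE 0.32; adjusted p = 0.0265) was lost in 7 of 18 alternatives. Among those were the fits without ACTB sgRNA replicate 2 (0.0934), con replicate 2 (0.0788), non-target replicate 1 (0.0662), input replicate 2 (0.101) or input replicate 3 (0.132). PSMD5, the third of these chaperones, had 0, 9.75 and 31.4 CPM in the inputs and 8.29 to 29.1 CPM with FHY1-M3, and did not pass the test (log2 difference 0.40, SE 0.63).

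None of the 4 chaperones of the 20S core passed the test. PSMG1, PSMG2, PSMG3 and PSMG4 had log2 differences of 0.58, -0.48, 0.22 and 0.10, with adjusted p from 0.214 to 0.919. At these levels the intervals were wide: PSMG4 had 34.7, 48.8 and 5.23 CPM in the inputs and 15.1 to 60.4 CPM with FHY1-M3.

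The activators did not pass the test either. PSME1 and PSME2, which form one activator together and are induced by interferon, had log2 differences of -0.61 (SE 0.34; adjusted p = 0.221) and 1.40 (SE 0.56; adjusted p = 0.0703). PSME2 passed the test without input replicate 1 (adjusted p = 0.0486). PSME1 had 52.0, 55.3 and 47.1 CPM in the inputs and 27.0 to 42.6 CPM with FHY1-M3. PSME2 had 17.3, 16.3 and 0 CPM in the inputs and 20.5 to 43.7 CPM with FHY1-M3. The libraries of both groups were thus apart for each of the pair, in opposite directions. PSME3, the nuclear activator, had a log2 difference of 0.10, and PSME4, an activator with roles in DNA repair and sperm formation, of -0.33 (adjusted p = 0.206).

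PSMF1 (chromosome 20, 1113263 to 1172246), named as a proteasome inhibitor from its action in the test tube, had 217, 122 and 183 CPM in the inputs and 83.4 to 138 CPM with FHY1-M3 (median 109). Input replicate 2 overlapped the ACTB sgRNA libraries. PSMF1 fell by 0.66 on the log2 scale (SE 0.20; adjusted p = 0.0152). Without input replicate 1 or input replicate 3 the call was lost (adjusted p = 0.123 and 0.0586).

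Of the 19 members called, 8 passed the test in the same direction in all 18 alternatives: PSMB1, PSMC3, PSMC4, PSMD1, PSMD3, PSMD8, PSMD12 and PSMD9. The other 11 lost the call in at least 1, and none of the 19 changed sign. Some members overlap another counted gene in RefSeq: PSMC1 overlaps NRDE2, PSMC2 overlaps PMPCB and SLC26A5, PSMC5 overlaps FTSJ3, PSMD1 overlaps HTR2B and RNU1-93P, PSMD10 overlaps ATG4A and PSMG2 overlaps SPIRE1 and CEP76. The overlaps run from 19 bases, for PSMC2 with PMPCB, to 40822 bases, for PSMG2 with CEP76. Because the strand setting of the counting is not stated, reads in those stretches cannot be told apart. PSMC2 and PMPCB lie on the same strand, so no strand setting would separate them. Named pseudogenes exist for 21 members, 52 in all, and none is in the count table, so how reads that fit both were treated is not known.

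Each guide was also set against the same 3 inputs, so these comparisons share those libraries. With the ACTB sgRNA, 8 members were higher and 1 lower, where 7.05% and 3.97% of all genes were called. The con sgRNA had 11 higher and 1 lower, against 7.22% and 4.22%, and the non-target sgRNA 13 higher and 3 lower, against 8.1% and 4.57%. The median log2 difference of the members was 0.26, 0.41 and 0.55 for ACTB, con and non-target. Of the 17 members of the 19S particle, 5, 8 and 8 rose, and of the 14 core subunits 3, 3 and 4. PSMC4 had log2 differences of 1.02, 1.01 and 1.29 in these comparisons, and PSMD8 0.87, 0.89 and 0.97. PSMA6 was the member where the guides stood furthest apart among the called ones, with -0.50, -2.02 and -3.27.

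The guides were then compared with each other. By the edgeR test, no member passed the threshold in any of them. Between the ACTB and non-target sgRNA, 0 of 43 members were called, where 0.25% of all 12808 genes tested were, and 7 members had an unadjusted p under 0.05 (7.82% of all genes did). Between the ACTB and con sgRNA, 0 members were called (0.0312% of all genes) and 3 had an unadjusted p under 0.05 (3.86%). Between the con and non-target sgRNA, 0 were called (0.172%) and 4 had an unadjusted p under 0.05 (5.25%). DESeq2 called 0 members in each comparison too, with 8, 4 and 3 at an unadjusted p under 0.05. These comparisons share libraries, so a gene set apart in 1 guide appears in 2 of them.

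PSMA6 had the largest difference, with 11.6 and 20.8 CPM for ACTB and 3.22 and 1.37 CPM for non-target, a log2 difference of 2.78 (SE 0.92; adjusted p = 0.339). PSMG2, a chaperone of the 20S core, had 16.0 and 35.3 CPM for ACTB, 22.9 and 25.5 for con, and 5.91 and 11.6 for non-target. Its log2 differences were 1.56 (SE 0.54; adjusted p = 0.376) for ACTB against non-target and 1.47 (SE 0.54; adjusted p = 0.787) for con against non-target. The non-target libraries were the low ones in both genes, and neither passed the test.

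PSMD2 had 153 and 121 CPM for ACTB, 207 and 178 for con, and 182 and 204 for non-target. The ACTB libraries were below the others, with a log2 difference of -0.49 (SE 0.17) against each, and adjusted p of 0.385 and 1. PSMD14 had 95.3 and 106 CPM for ACTB, 107 and 88.4 for con, and 69.6 and 70.4 for non-target, and its log2 differences against non-target were 0.53 and 0.48 (adjusted p = 0.58 and 0.932). PSMF1, the inhibitor, had 120 and 138 CPM for ACTB and 97.8 and 83.4 for non-target (log2 difference 0.51, SE 0.21, adjusted p = 0.565). PSMD4 and PSMG3 had log2 differences of -0.42 and -0.70 between ACTB and non-target. PSMA7 and PSMD5 had 0.38 and -1.22 between ACTB and con, and PSMB3 and PSMD11 had 0.43 and -0.37 between con and non-target, each with an adjusted p of 0.565 or more.

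With 2 libraries per guide, the size of change that remained possible depended on the gene. The 95% interval of the difference stayed within 1.5-fold in either direction for 16, 19 and 20 of the 43 members, in the order ACTB against non-target, ACTB against con and con against non-target. It stayed within 2-fold for 32, 34 and 34. The remaining members could differ by more than 2-fold without detection. Across the 6 sgRNA libraries the highest value of a member was 1.57 times the lowest in the median. Among the 3 inputs the median ratio was 1.84, over the 41 members above 0 in each.

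A list of 31 other genes of the ubiquitin and proteasome pathway was tested in the same fits. Against input, 7 rose and 1 fell (22.6% and 3.23%, with 11.4% and 8.6% over all genes). Most of the list averaged at least 50 CPM, and at that level 21.5% of 5282 genes were higher and 12.4% lower. The share of the list that rose was thus near that of genes at its level. The median log2 difference of the 31 genes was 0.09. UBB, which encodes a chain of ubiquitin repeats and is induced by stress, had 416, 601 and 627 CPM in the inputs and 978 to 1117 CPM with FHY1-M3. It rose by 0.91 (SE 0.10; adjusted p = 1.49e-08). RPS27A, which encodes ubiquitin fused to a ribosomal protein, had 729, 783 and 732 CPM in the inputs and 477 to 602 CPM with FHY1-M3. It fell by 0.46 on the log2 scale (SE 0.10; adjusted p = 0.000825). The libraries of both groups were apart for each of these genes.

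Among proteins bound to the proteasome, ADRM1, a ubiquitin receptor of the 19S particle whose symbol lies outside the naming rule, rose by 1.03 (SE 0.25; adjusted p = 0.00298). It had 28.9, 84.5 and 68.0 CPM in the inputs and 112 to 144 CPM with FHY1-M3. SEM1, a small 19S subunit that the rule also leaves out, had a log2 difference of -0.27 (SE 0.33; adjusted p = 0.616). ZFAND2A, an arsenite-induced and heat-induced factor that binds the proteasome, rose by 1.99 (SE 0.49; adjusted p = 0.00308), from 11.6, 9.75 and 10.5 CPM in the inputs to 27.3 to 55.3 CPM. The maturation factor of the 20S core, POMP, had -0.09 (SE 0.35).

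Both ubiquitin-activating enzymes rose, UBA1 by 0.37 (SE 0.10; adjusted p = 0.00983) and UBA6 by 1.28 (SE 0.26; adjusted p = 0.000491). UBA6 had 23.1, 89.4 and 47.1 CPM in the inputs and 122 to 164 CPM with FHY1-M3. RAD23B, which shuttles ubiquitin-tagged proteins to the proteasome, rose by 0.58 (SE 0.13; adjusted p = 0.00125). NSFL1C, a cofactor of the segregase VCP, rose by 1.08 (SE 0.30; adjusted p = 0.00777), and VCP itself had 0.30 (adjusted p = 0.141). The regulators did not pass the test: NFE2L1 had 0.34 (SE 0.16; adjusted p = 0.118), NFE2L2 -0.40 (adjusted p = 0.301), DDI2, a protease that activates NFE2L1, -0.47 (adjusted p = 0.176), and NGLY1, an enzyme that removes its sugar chains, 0.54 (adjusted p = 0.276). Between guides none of the 31 was called, where 0.25%, 0.0312% and 0.172% of all genes were. The order is ACTB against non-target, ACTB against con and con against non-target. An unadjusted p under 0.05 was found for 3, 0 and 2 of the 31, and for 7.82%, 3.86% and 5.25% of all genes.

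**Figure D3:**
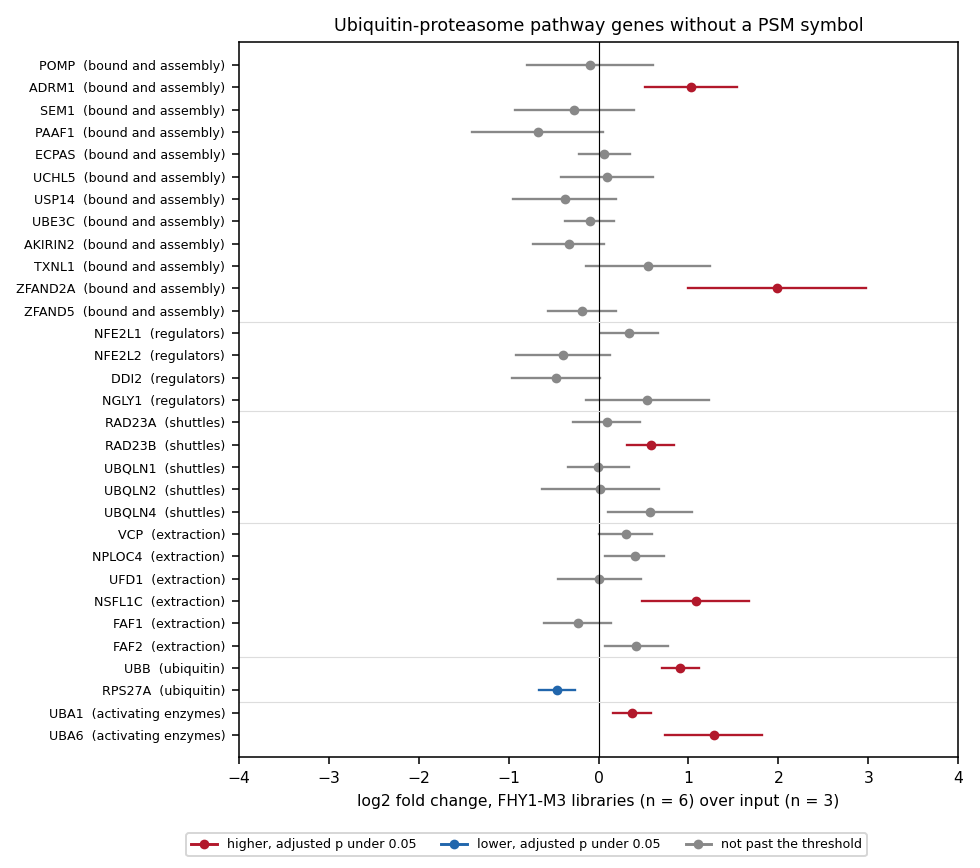
Log2 difference between the 6 FHY1-M3 libraries and the 3 inputs (x axis) for 31 pathway genes without a PSM symbol, grouped by role. Points are fitted values and bars 95% intervals; UBB lies right of 0 and RPS27A left of it.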

How the data were processed

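TRIzol extraction and a directional library kit were used, per the labels' protocols. Tools named in the submitters' processing notes are STAR 2.7.10b, cutadapt 4.3 and deepTools, with the build hg38. Which annotation, counter and strand setting were used is not given in the sources used here. The authors deposited whole-number counts per gene symbol, not normalized as far as the values show. Among values of 1 to 20, 88.5% to 95.0% per library were even, so both mates of a pair appear to have been counted. Floors take each count as separate, so they are too low in that case, and they cover counting error only.

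The comparisons used the quasi-likelihood F test of edgeR 4.0.16 (R 4.3.3, limma 3.58.1), two-sided, on the deposited counts, with filterByExpr, TMM scaling and Benjamini-Hochberg adjustment over all genes tested. FHY1-M3 against input used 1 fit of 9 libraries (13411 genes), as the mean of the 3 guides minus input. Guide comparisons used 1 fit of the 6 sgRNA libraries (12808 genes). Levels are CPM with the TMM scaling of the 9-library fit, and are not per gene length, so levels of different genes were not compared. SEs come from the fold change and its F. Every adjusted p of a single gene is from edgeR unless DESeq2 1.42.0 is named.

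Replicates differed by more than sampling noise (chi-square per degree of freedom 1.81 to 5.12). On simulated counts for FHY1-M3 against input (12947 genes), the test found 12% of genes changed 1.5-fold, 40% at 2-fold, 80% at 4-fold and 96% at 8-fold, and made 3 false calls. For ACTB against non-target sgRNA (12591 genes) it found 8%, 26%, 68% and 98%, and made 2. The changed genes, 50 per fold, were drawn only from genes above a limit on the mean count. All other genes were simulated without a difference between groups. These rates therefore need not hold for genes with low counts, or where many genes differ, as between FHY1-M3 and input.

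Members may all be named. Values per library are given for members past the threshold, for cutting subunits and their immune forms, and for members with an unadjusted p under 0.05 between guides. The members and lists were chosen with earlier results of these data known. Coordinates, start sites and sequences are from RefSeq (GRCh38.p14), which matched all 48 members. Markers of erythroid cells, fibroblasts and testis germ cells summed to at most 1.05, 4.68 and 4.97 CPM with FHY1-M3 and 3.25, 6.50 and 11.6 CPM in the inputs. Some genes of the pathway list are not reported here.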

Additional observations from a re-analysis of the deposited data

Results flagged for a closer look

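PSMB10, an immune form of a cutting subunit, had 4.42 CPM in ACTB sgRNA replicate 1, against 1.57 CPM in the next of the 6 FHY1-M3 libraries. The gap was 0.741 of the range of the group, which is above the limit of Dixon's test for 6 values. Chance alone flags about 1 in 20 groups of normally distributed values in this way, a rate that need not hold for counts this low. The flagged PSMB10 value rests on 16 reads.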

How the results depend on the processing

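Alternatives changed the scaling, the low-count filter, the test, the unit of counting, the genes in the table and the depth, added the replicate block, or left out each library. Against input, the members that rose numbered 15, from 12 to 15 when a library was left out and from 11 to 15 otherwise. Those that fell numbered 4, with 2 under the replicate block and from 2 to 4 without 1 library (2 without input replicate 3), and 4 or 5 in the other fits. Replicate numbers did not pair the libraries (correlations of deviations -0.01 to 0.01), and with the block 2309 genes were called against input in place of 2677. Under the block the adjusted p was 0.0578 for PSMA7, 0.0527 for PSMB2, 0.178 for PSMC1, 0.052 for PSMC5, 0.0796 for PSMD2, 0.143 for PSMD10 and 0.052 for PSMF1, so that these calls were lost, and 0.0262 for PSMC6, which gained one. Only the inputs have a replicate 3, so the block gives that library a term of its own and takes it out of the contrast. Without input replicate 3, the calls for PSMB2, PSMC1, PSMC5, PSMD2, PSMD10 and PSMF1 were lost too, and PSMC6 gained one. PSMA7 kept its call there. Other causes were not tested. The 2677 calls of the main fit were 1524 higher and 1153 lower. The split was 1378 and 1552 with DESeq2, and 981 and 1114 with the sgRNA libraries thinned to 462026 counts.

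Called genes between ACTB and non-target sgRNA numbered 32, then 21 among genes averaging 10 CPM or more, 66 with DESeq2, 16 with all 9 libraries and 18 to 35 without 1 library (18 without non-target replicate 1). ACTB against con gave 4, and 7 with no filter, 2 without mitochondrial and histone genes, 0 with all 9 libraries (187 at an unadjusted p under 0.05) and 0 to 3 without 1 library. Con against non-target gave 22, then 12 among genes averaging 10 CPM or more, 38 with DESeq2 and 10 to 27 without 1 library. Members called between guides stayed at 0 throughout. The input's mean summed share was 0.361%, and 0.395% without mitochondrial and histone counts, an alternative chosen after seeing the data, as were the left-out libraries for that share. In the 250 bases before the start alone, the antioxidant core was in 26.2% of member windows and 11.0% of all, and CCAAT in 42.9% and 33.0%.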
